A study of Mus musculus with 106 samples.

Results

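The heat shock chaperones described here are 10 mouse genes chosen by symbol, with earlier results of these data known: Hspa1a, Hspa1b, Hspa8, Hsph1, Dnajb1, Hsp90aa1, Hspb1, Hspd1, Hspe1 and Hsf1. All 10 were found in each of the 4 count tables, which list 21647 to 23420 genes and share 19168 symbols. Tissues came from male C57BL/6J mice with no transgene or drug. In the cold experiment mice spent 5 days at 18 °C, 5 days at 14 °C and then 2 weeks at 10 °C, and 11 tissues were compared with those of mice kept at 22 °C. In the warm experiment mice spent 4 weeks at 34 °C, and 5 tissues were compared with another set of 22 °C mice. The mice of the cold set are labelled week 11 and those of the warm set and quadriceps 12 weeks. The cold and warm sets came from different vendors. A group held 3 libraries, each a pool of 2 mice, except bone marrow with 6 single mice a group and spinal cord with 5; the warm interscapular brown fat was partly single mice. Every group is whole tissue, so fewer cells of a type and less RNA per cell cannot be told apart.

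Heat shock proteins are chaperones: they hold, fold and refold other proteins, and their genes are the classic targets of the transcription factor HSF1. HSF1 is kept inactive by chaperones in resting cells and, when unfolded proteins draw the chaperones away, forms trimers that bind heat shock elements, which are repeats of GAA and its complement TTC on alternating strands. Other chaperones serve the mitochondria, where imported proteins have to be folded anew. Mice defend their core temperature, so the temperature of the housing is not that of the tissue, and tissue temperature was not analysed here.

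The stretches upstream of the start of transcription are shown for the HSP70 pair, Hspb1, Hsph1 and the pair of mitochondrial chaperonin genes, because they carry letters of the kind that HSF1 is known to read; they were chosen by these letters and not by how far the genes moved, and Dnajb1, called in 4 comparisons, is not shown because its windows hold no match. They are RefSeq sequences on GRCm38.p6, written 5′ to 3′ on the gene's strand, and capitals mark the GAA and TTC units of every match to GAANNTTC or TTCNNGAA, which read the same on both strands. Of the 10 genes, 7 had an entry. The 250 bases before the start of Hspa1a (chr17:34972157-34972406, minus strand) and of Hspa1b (chr17:34959239-34959488, minus strand) were identical at 247 positions and different at 3, and both held 1 match, 104 to 97 bases upstream. Those of Hspb1 (chr5:135887669-135887918, plus strand) held 2.
Hspa1a: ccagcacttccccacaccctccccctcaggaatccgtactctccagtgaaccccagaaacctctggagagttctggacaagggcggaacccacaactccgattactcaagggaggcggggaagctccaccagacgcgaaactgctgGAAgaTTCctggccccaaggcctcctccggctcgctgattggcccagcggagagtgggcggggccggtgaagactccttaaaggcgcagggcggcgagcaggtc
Hspa1b: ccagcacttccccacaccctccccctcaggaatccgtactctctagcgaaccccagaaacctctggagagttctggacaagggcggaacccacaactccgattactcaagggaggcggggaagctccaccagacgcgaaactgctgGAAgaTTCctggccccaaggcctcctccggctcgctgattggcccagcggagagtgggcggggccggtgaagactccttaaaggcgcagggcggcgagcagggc
Hspb1: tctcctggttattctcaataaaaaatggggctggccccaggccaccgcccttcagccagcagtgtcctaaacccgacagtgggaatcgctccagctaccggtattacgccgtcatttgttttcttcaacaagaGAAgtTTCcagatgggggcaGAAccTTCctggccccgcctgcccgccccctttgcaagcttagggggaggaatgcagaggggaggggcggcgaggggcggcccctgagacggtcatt

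Hspd1 and Hspe1 lie head to head on chromosome 1 and overlap by 112 bases, and upstream of the RefSeq start of Hspe1 and of 1 listed start of Hspd1 is the same run of 18 bases, which holds both 3-unit forms, GAANNTTCNNGAA and TTCNNGAANNTTC. It is shown on both strands (chr1:55088053-55088082) with the 30-base window around the match of Hsph1 (chr5:149636351-149636380, minus strand). In the GENCODE M21 annotation all 250 bases before each of these starts of Hspe1 and Hspd1 lie in exons. The run of 18 bases lies within the Hspd1 gene there, downstream of its annotated start. The other listed start of Hspd1 had no match. The match of Hsph1 also lies within its annotated gene.
Hspe1: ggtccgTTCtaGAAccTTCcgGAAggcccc
Hspd1: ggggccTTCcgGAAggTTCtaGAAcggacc
Hsph1: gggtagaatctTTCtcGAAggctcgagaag

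Of 32851 upstream stretches of the same length, 12.8% held at least 1 of the 2-unit motifs, which overlap within a 3-unit match, and 0.466% held a 3-unit motif. Counted per gene, over 27025 genes with 1 or more listed starts, the shares were 14.5% and 0.514%. Among the 7 genes with an entry, 6 held a 2-unit match and 2, Hspd1 and Hspe1, a 3-unit match. A match is a description of letters only.

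The position of each gene in GENCODE M21 (GRCm38) bears on how far its reads can be told apart. Hspa1b (chr17:34956436-34959238) and Hspa1a (chr17:34969190-34972156) stand 9951 bases apart on the minus strand. Of the 50-base words in the Hspa1a transcript, 58.8% also occur in Hspa1b, and of those in Hspa1b, 62.3% occur in Hspa1a. The split of reads between these 2 genes is uncertain, and their summed counts were fitted as well. Hsp90aa1 (chr12:110690605-110702728, minus strand) shares 47.5% of its words with other transcripts, mostly the pseudogene Gm12346, Hspb1 (chr5:135887919-135889563, plus strand) shares 50.1%, Hspd1 (chr1:55077835-55088243, minus strand) 42.1%, Hspa8 (chr9:40800984-40810087, plus strand) 39.4% and Hspe1 (chr1:55088132-55091307, plus strand) 22.8%. Hsph1 (chr5:149614287-149636376, minus strand) and Hsf1 (chr15:76477422-76501913, plus strand) share none, and Dnajb1 (chr8:83608193-83612653, plus strand) shares 0.412%.

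Values are read counts divided by library size (CPM), scaled within each comparison, and every fold change was fitted to the counts of 1 tissue. The 76 libraries of the cold experiment held 4262403 to 58290770 counted reads (median 17501041) and the 30 of the warm experiment 29545458 to 62880248. Each tissue carried the markers of its label in every library. A 22 °C brain library, number 2, stands apart: it held 50338 CPM of the liver gene Alb against 1.47 to 6.93 in the other 5 libraries, so brain values at 10 °C are given with and without it. In perigonadal fat 4 epididymis genes summed to 282 to 2519 CPM at 22 °C and to 1.34 to 9441 at 10 °C, and in spleen the pancreas gene Cpa1 ranged from 0.251 to 508 CPM over both groups. The 22 °C columns of quadriceps were assigned to the 2 experiments by their column names.

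A call, higher or lower, takes a fold change over 1.5 with p no larger than 0.05 before adjustment, the limits of the study. Because the members were selected on these data, their calls are a description with no test, and the share of all genes with the same call is given beside each count. At 10 °C members were called higher 25 times over the 11 tissues and lower 0 times. In ileum 6 of 10 were called higher, beside 1.44% of all genes, and in iBAT, the interscapular brown fat, 5 of 10 beside 6%. In ingSAT, the inguinal fat, 5 of 10 were called higher beside 7.2%, and in quadriceps 4 of 10 beside 3.09%. In bone marrow the count was 2 of 9 tested beside 0.647%, in spinal cord 2 of 10 beside 0.181%, and in hypothalamus 1 of 10 beside 0.399%. None was called higher in pgVAT, the perigonadal fat (4.46% of all genes), liver (0.74%), spleen (0.638%) or brain (0.27%, and 0.515% without the 22 °C library with liver transcripts). None was called lower, where the share of all genes was 7.24% in iBAT, 9.14% in ingSAT, 3.47% in pgVAT, 0.743% in quadriceps, 2.54% in liver, 1.26% in ileum, 2.04% in spleen, 0.647% in bone marrow, 2.45% in brain (0.286% without that library), 0.179% in hypothalamus and 0.0904% in spinal cord.

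At 34 °C the calls ran the other way: members were called lower 8 times over the 5 tissues and higher 0 times. The count was 2 of 10 in iBAT beside 7.19% of all genes, 2 of 10 in quadriceps beside 0.919%, 2 of 9 tested in liver beside 1.61%, 2 of 10 in ileum beside 1.26% and 0 of 10 in brain beside 0.15%. The share of all genes called higher was 12.2% in iBAT, 0.289% in quadriceps, 1.77% in liver, 1.57% in ileum and 0.0429% in brain. The members' median log2 fold change at 10 °C was 0.73 in ileum, 0.61 in ingSAT, 0.47 in iBAT and 0.45 in pgVAT. It was 0.18 in bone marrow, 0.18 in spinal cord, 0.10 in hypothalamus, 0.07 in quadriceps, 0.07 in liver, -0.06 in brain and -0.07 in spleen, while the median of all genes tested lay between -0.02 and 0.03 in each tissue. Without the 22 °C brain library with liver transcripts, only Hsp90aa1 (-0.15) and Hsf1 (-0.12) were below 0 in brain. At 34 °C it was negative in each of the 5 tissues, from -0.27 in ileum to -0.06 in brain.

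**Figure D1:**
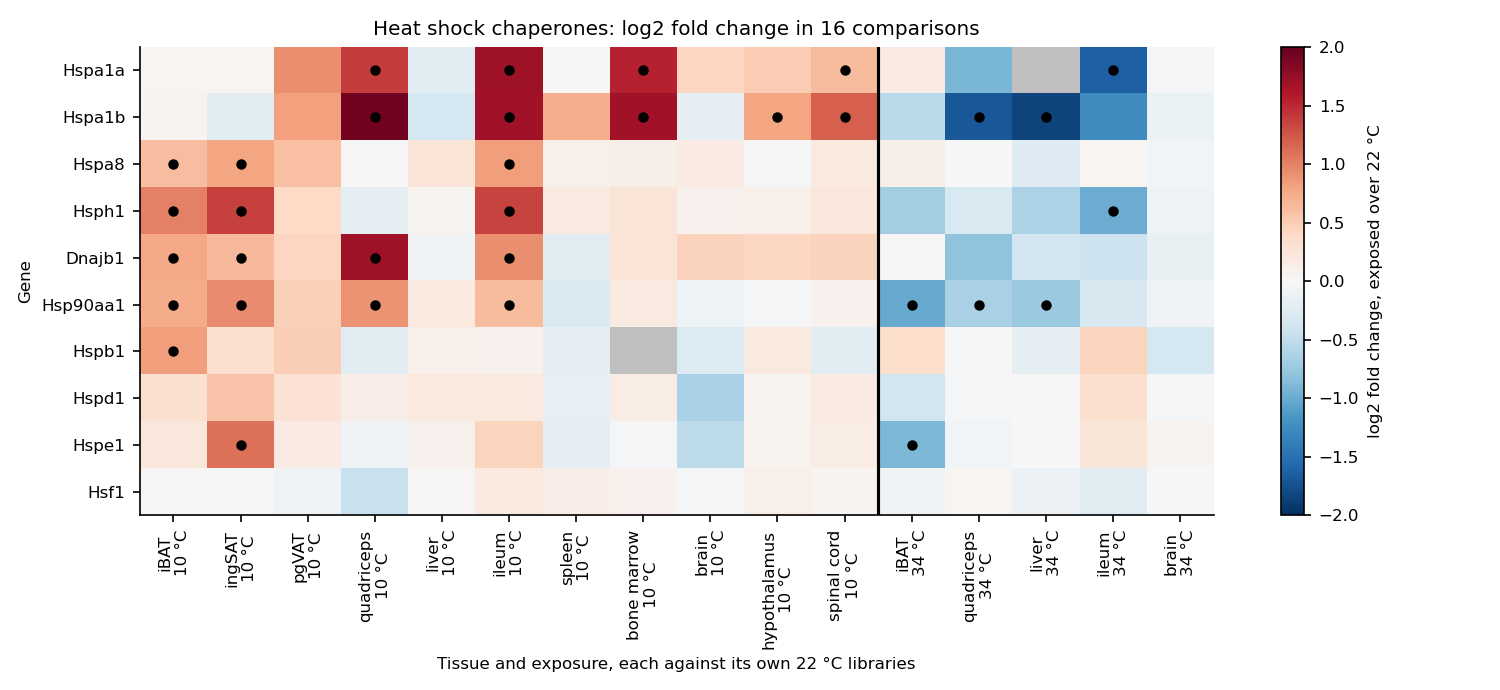
Fitted log2 fold change of the 10 genes (rows) in 16 comparisons (columns), exposed over 22 °C, with red for higher and blue for lower and grey for a gene below the filter on low counts. Dots mark calls (fold change over 1.5, p no larger than 0.05 before adjustment); the 25 dots left of the line at 10 °C are all red and the 8 dots right of it at 34 °C are all blue.

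Hspa1a and Hspa1b encode the inducible HSP70 proteins, the most strongly heat-induced chaperones. In ileum at 10 °C both were about 3 times as high as at 22 °C. Hspa1b stood at 16.2, 16.3 and 14.2 CPM in the 10 °C libraries and at 4.25, 4.99 and 5.25 at 22 °C, a 3.21-fold difference (log2 1.68 ± 0.13, SE). Hspa1a stood at 6.96, 9.76 and 6.39 CPM against 2.39, 1.78 and 2.89, a 3.25-fold difference (log2 1.70 ± 0.24, SE). The groups did not overlap for either gene, and the sum of the 2 genes gave log2 1.69.

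In quadriceps the fold changes of the HSP70 pair were as large but the libraries were spread more widely. Hspa1b was at 11.6, 6.89 and 4.41 CPM at 10 °C and at 4.42, 0.904 and 0.789 at 22 °C (log2 1.93 ± 0.68, SE). Hspa1a was at 17, 9.03 and 6.67 CPM against 7.56, 2.71 and 2.22 (log2 1.40 ± 0.52, SE). For both genes the highest 22 °C library, number 1, lay within the 10 °C range; that library also held 236 CPM of the pancreas gene Cpa1, against at most 0.904 in the others, and its part in the result was not tested. Both calls were lost without 22 °C library 2, 22 °C library 3 or 10 °C library 1. Brown fat markers in these muscles summed to 42.9 to 181 CPM at 10 °C and to 1.78 to 2.07 at 22 °C, without overlap, and 10 °C library 1, the highest in both genes, held 124 CPM of the epididymis gene Crisp1, which was at 0 in the other 5; their part in the result was not tested.

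In the nervous system the pair was higher in spinal cord and, by a smaller amount, in hypothalamus. In the 5 spinal cords at 10 °C Hspa1b was at 5.27, 4.39, 3.37, 5.92 and 3.03 CPM, and in the 5 at 22 °C at 2.74, 2.54, 1.32, 1.21 and 1.76, with every 10 °C value above every 22 °C value (2.28-fold, log2 1.19 ± 0.26, SE). Hspa1a was at 4.28 to 6.01 CPM against 2.49 to 4.35, with 1 of the 22 °C mice inside the 10 °C range (log2 0.64 ± 0.17, SE). That call was lost without 10 °C mouse 4 or 22 °C mouse 3. The immediate early gene Fos, which marks recent stimulation of cells, had in spinal cord a level of 21.4 ± 1.70 CPM against 12.2 ± 1.85 (SD, n = 5; log2 0.81, adjusted p = 0.0425 by edgeR's quasi-likelihood test). In hypothalamus Hspa1b was at 3.65, 4.16 and 5.19 CPM against 3.72, 1.89 and 1.98 (log2 0.79 ± 0.26, SE), and 22 °C library 1 lay within the 10 °C range; the call was lost without 22 °C library 3. Hspa1a there was at 6.45 to 6.74 CPM against 3.59 to 5.88, without overlap and below the fold limit (1.42-fold).

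In bone marrow 2 of the 6 mice at 10 °C stood far above the others. The 6 values of Hspa1b at 10 °C ran from 0.602 to 9.01 CPM with a median of 0.959, against 0.588 to 1.36 with a median of 0.857 at 22 °C (fitted log2 fold change 1.67 ± 0.66, SE). Mice 3 and 4 stood at 5.35 and 9.01 CPM and the other 4 at 0.602 to 1.12. Hspa1a followed, with 2.45 and 3.57 CPM in mice 3 and 4 and 0.307 to 1.18 in the other 4. In the same 2 mice Dnajb1 was at 195 and 204 CPM against 127 to 166 in the other 4, and 8 summed immediate early genes were at 353 and 317 CPM against 161 to 172. Without mouse 3 the log2 fold change of Hspa1b was 1.42 and without mouse 4 it was 0.88, neither one called, and Hspa1a then fell below the filter on low counts; with neither mouse both genes did.

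In iBAT and ingSAT, where other members were called higher at 10 °C, the HSP70 pair was called in neither tissue. Hspa1b was at 3.66, 7.06 and 9.60 CPM in iBAT at 10 °C against 10.1, 5.81 and 3.96 (log2 0.05 ± 0.40, SE), and in ingSAT the log2 fold change was -0.21. The libraries overlapped throughout in both tissues. In pgVAT 1 library at 10 °C, number 3, held 22.1 CPM of Hspa1b while the other 2 were at 6.95 and 6.61, within the 22 °C range of 3.89 to 10.4. Library 3 also held 4435 CPM of the epididymis gene Lcn5, against 3736 and 0.492 in the other 2, and its part in the result was not tested. In brain Hspa1b had a log2 fold change of -0.18 with all libraries and 0.52 without the 22 °C library that held liver transcripts.

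At 34 °C 1 gene of the pair was called lower in each of liver, quadriceps and ileum, with wide spread at 22 °C. In liver Hspa1b was at 2.35, 1.33 and 1.89 CPM at 34 °C against 1.39, 9.34 and 9.47 at 22 °C (3.62-fold lower, log2 -1.86 ± 0.60, SE). In quadriceps it was at 0.833, 1.35 and 0.773 CPM against 1.12, 5.31 and 3.09 (log2 -1.69 ± 0.53, SE), and in ileum at 6.26, 1.98 and 6.09 against 5.13, 18 and 11.1 (log2 -1.26, not called). In each of these 3 tissues 22 °C library 1 lay within the 34 °C range, and libraries 2 and 3 lay above it. The call in liver was lost without 22 °C library 2 or 3, and that in quadriceps without library 2 and also against all 6 quadriceps libraries at 22 °C (log2 -1.41). Hspa1a in ileum was at 2.49, 1.44 and 2.37 CPM against 2.23, 11.2 and 6.15 (log2 -1.63 ± 0.56, SE), a call lost without 22 °C library 2 or 34 °C library 2. In quadriceps Hspa1a was at 2.04, 2.57 and 1.97 CPM against 1.12, 6.90 and 4.34 (log2 -0.91 ± 0.54, SE), not called. In liver it was below the filter on low counts, at 0.315, 0.393 and 0.236 CPM against 0.329, 1.58 and 1.20. In brain both genes were close to their 22 °C level, with Hspa1b at 2.96 to 3.88 CPM against 3.52 to 4.34. The summed pair, fitted with all libraries, was called lower at 34 °C in liver (log2 -1.84), ileum (-1.38) and quadriceps (-1.20), and not in iBAT or brain. At 10 °C the sum was called higher in ileum, bone marrow (1.62), quadriceps (1.59), spinal cord (0.88) and hypothalamus (0.61). It was not called in the other tissues at 10 °C.

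The 22 °C library numbered 2 of the warm experiment had the highest Hspa1a of its 22 °C group in 5 of 5 tissues, the highest Dnajb1 in 5 of 5, and the highest Hspa1b and Hsp90aa1 in 4 of 5 each. Whether the number names the same mice in every tissue is not given in the sources used here. Without that library in each tissue, the count of members called lower at 34 °C went from 8 to 2, the remaining calls being Hsp90aa1 and Hspe1 in iBAT, and 1 call higher appeared, Hspa1b in iBAT with log2 1.46. Summed immediate early genes in that library were also the highest of the 22 °C group in quadriceps (303 CPM against 162 and 182), ileum (675 against 467 and 532) and brain (571 against 371 and 540.0), but not in iBAT or liver; their part in the result was not tested. In iBAT the same library held muscle transcripts, with the muscle actin Acta1 at 1097 CPM against 0.368 and 1.67 in the other 22 °C libraries, and its 5 summed muscle markers stood at 4264 CPM against 94.6 and 99.3. At 34 °C that sum was 950.2 to 3347 CPM.

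**Figure D2:**
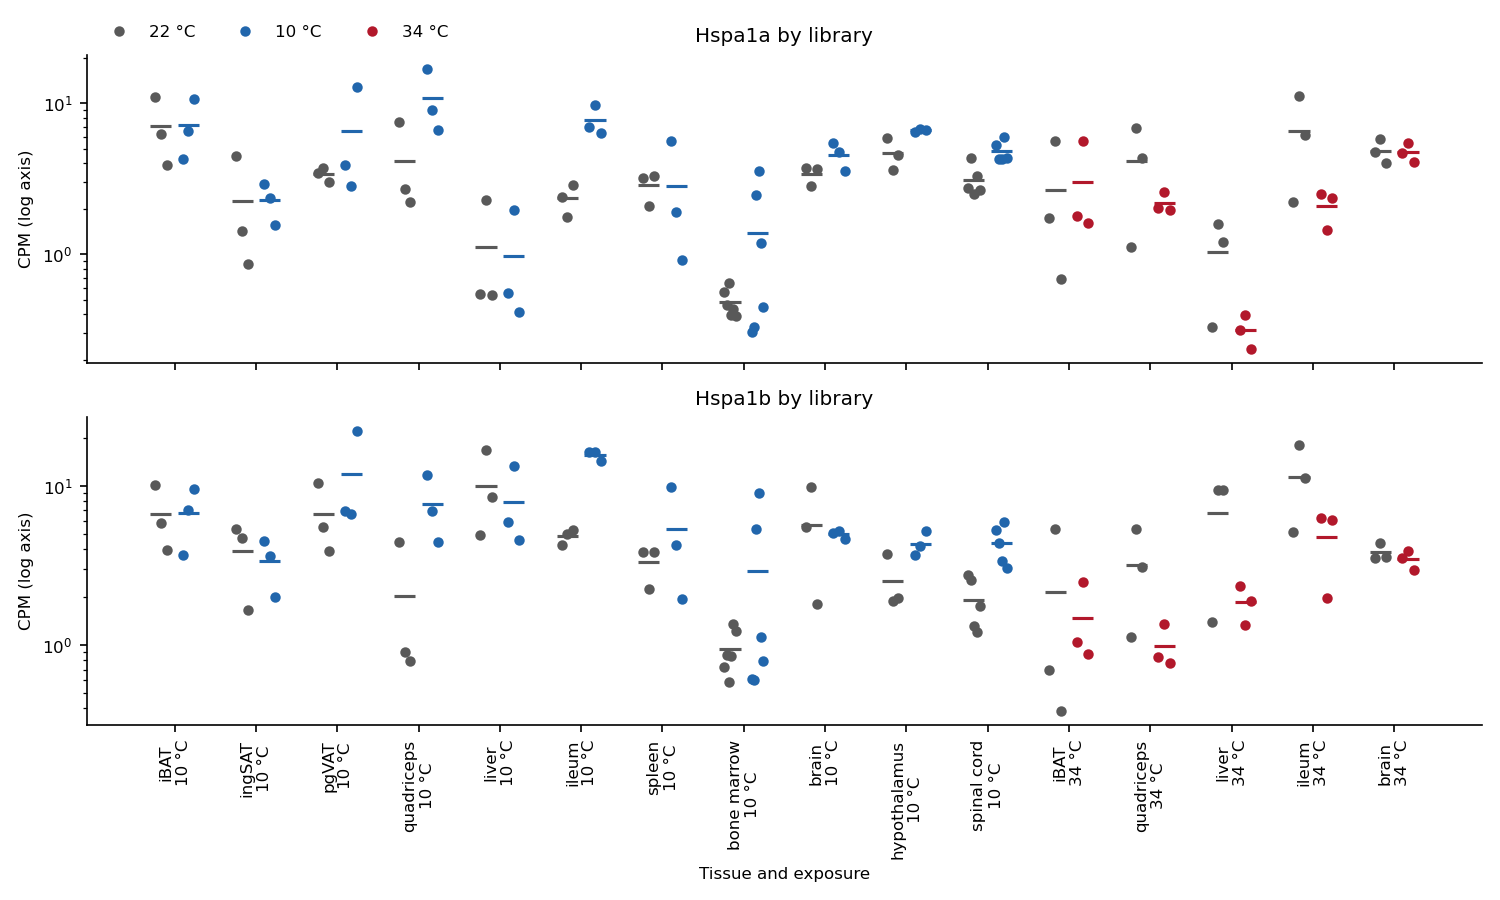
Hspa1a (top) and Hspa1b (bottom) in CPM on a log axis, 1 point per library and a line at each group mean, for 22 °C (grey), 10 °C (blue) and 34 °C (red). Ileum at 10 °C shows groups that do not overlap for either gene, bone marrow at 10 °C shows 2 mice above the other 4, and the grey points of the warm experiment spread widely in liver, quadriceps and ileum.

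The partners of HSP70 include Dnajb1, an HSP40 that delivers unfolded proteins and stimulates its ATPase, Hsph1, an HSP110 that exchanges its nucleotide, and Hspa8, the HSP70 that cells make at all times. In ileum at 10 °C all 3 were higher with no overlap. Hsph1 was at 136, 133 and 157 CPM against 71.4, 43.4 and 52.4 (2.56-fold, log2 1.35 ± 0.17, SE). Dnajb1 was at 77.0, 67.3 and 78.6 CPM against 34.1, 40.4 and 43.0 (1.9-fold, log2 0.92 ± 0.11, SE). Hspa8 was at 339, 279 and 282 CPM against 147, 160.3 and 199 (1.78-fold, log2 0.83 ± 0.13, SE). The enterocyte markers summed to 12537 to 14499 CPM at 10 °C and 7661 to 8609 at 22 °C in the same libraries, and the part of cell composition in these differences was not tested.

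The same 3 genes were higher in both fat depots that carry thermogenic cells. In ingSAT Hsph1 was at 72.0, 93.9 and 89.8 CPM at 10 °C against 49.8, 25.2 and 24.6 (2.58-fold, log2 1.37 ± 0.29, SE), Hspa8 had a 1.73-fold and Dnajb1 a 1.57-fold difference, and no group overlapped. In iBAT Dnajb1 was at 57.6, 80.8 and 82.0 CPM against 39.1, 41.8 and 48.2 (1.7-fold, log2 0.77 ± 0.16, SE), without overlap. Hspa8 there was at 343, 395 and 374 CPM against 229.9, 205 and 291 (1.53-fold, log2 0.61 ± 0.15, SE). The Hspa8 call in iBAT was lost without 10 °C library 2, 22 °C library 1 or 22 °C library 2 and with scaling by library size alone, and the Dnajb1 call in ingSAT without 10 °C library 1 or 22 °C library 3. Hsph1 in iBAT was at 84.7, 148 and 125 CPM against 91.8, 36.7 and 49.6 (2.01-fold), and 22 °C library 1 lay within the 10 °C range. Brown fat markers in ingSAT summed to 1797 to 2337 CPM at 10 °C and to 59.9 to 116 at 22 °C, and to 12149 to 15984 CPM in iBAT at 10 °C and 6540 to 11167 at 22 °C. Skeletal muscle markers in iBAT summed to 2165 to 4600 CPM at 10 °C and 5541 to 7966 at 22 °C. No group overlapped in these sums, and their part in the result was not tested.

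Dnajb1 also differed in quadriceps, where Hspa8 and Hsph1 were not called. It was at 21.6, 24 and 10.7 CPM at 10 °C against 5.78, 5.14 and 6.37 (3.25-fold, log2 1.70 ± 0.29, SE), without overlap, in the muscles whose brown fat markers were higher as well. Against all 6 quadriceps libraries at 22 °C the difference was 2.11-fold (log2 1.08 ± 0.39, SE), still called. Hsph1 was at 133, 118 and 143 CPM against 196, 129 and 128 (log2 -0.20), and Hspa8 had a log2 fold change of 0.01. In the 3 parts of the nervous system Dnajb1 was higher at 10 °C without overlap but under the fold limit. The values were 64.6, 67.6 and 67.8 CPM against 55.1, 42.7 and 46.6 in brain (1.38-fold, and 1.31-fold without the library that held liver transcripts). They were 86.4, 87.1 and 86.8 CPM against 70.1, 60.6 and 65.6 in hypothalamus (1.33-fold), and 68.4 to 75.5 against 42.0 to 60.9 in spinal cord (1.38-fold).

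In liver and spleen at 10 °C none of these genes was called. Hsph1 in liver had a log2 fold change of 0.05 and Dnajb1 one of -0.07. In spleen the Hsph1 values at 10 °C were 178, 106 and 51.5 CPM, on both sides of the 22 °C range of 87.2 to 117. At 34 °C Hsph1 had a negative log2 fold change in each of the 5 tissues, from -1.0 in ileum to -0.10 in brain. In ileum it was at 24.6, 24.6 and 22.8 CPM against 22.6, 69.4 and 51.6, with 22 °C library 1 just below the 34 °C values. The call was lost when any library other than 22 °C library 1 was left out.

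**Figure D3:**
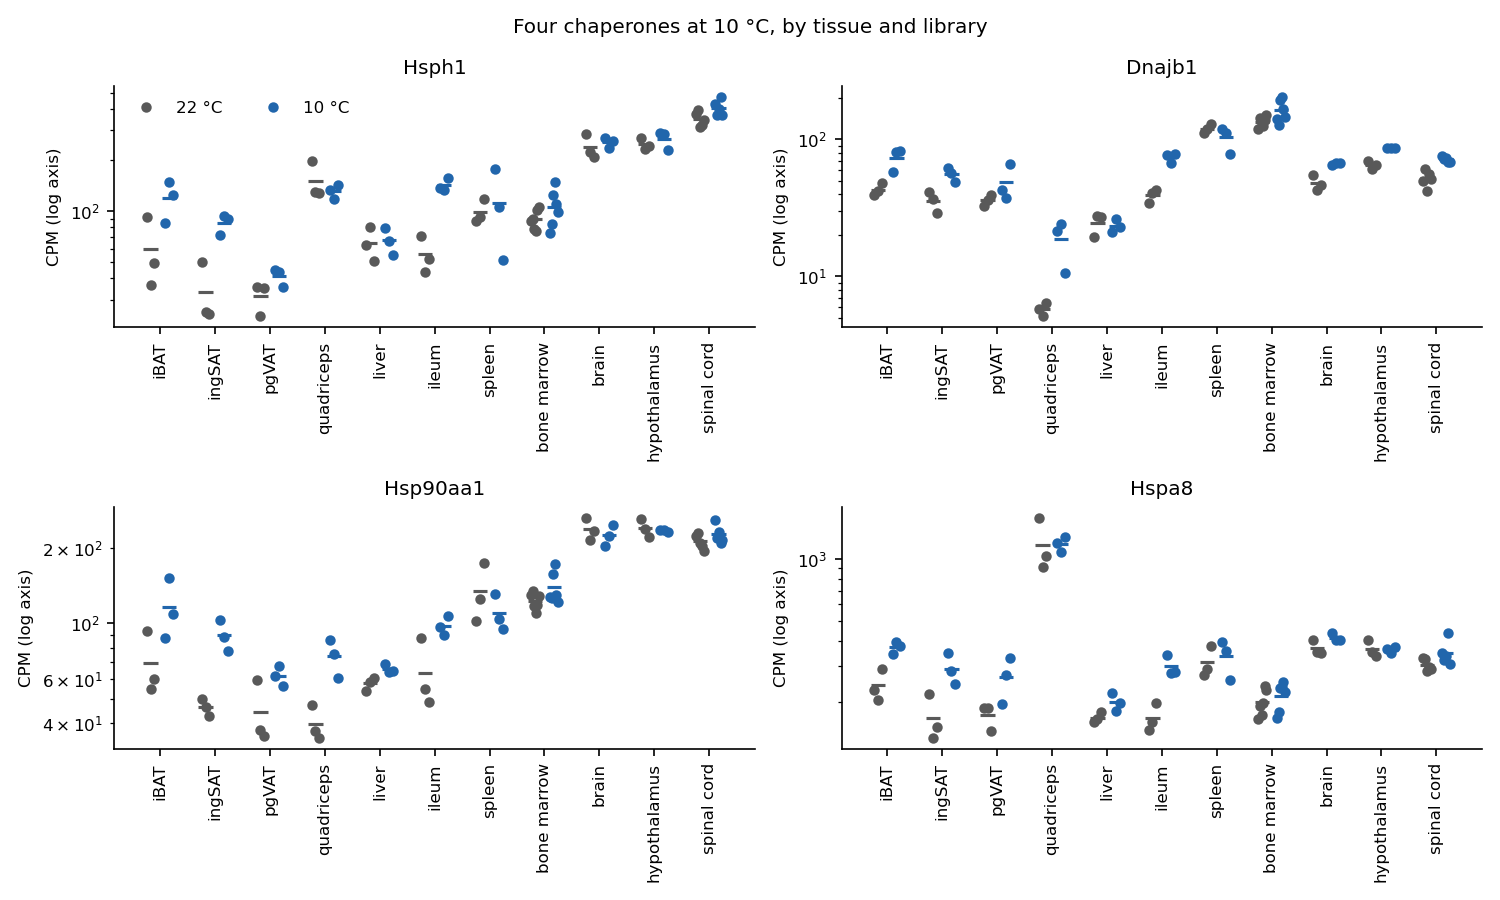
Hsph1, Dnajb1, Hsp90aa1 and Hspa8 in CPM on a log axis in 11 tissues of the cold experiment, 1 point per library (22 °C grey, 10 °C blue) with a line at each group mean. In ileum and ingSAT the groups do not overlap for any of the 4 genes, while in spleen they overlap for all 4.

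Hsp90aa1 encodes the inducible cytosolic HSP90, which matures kinases and steroid receptors and, in resting cells, holds HSF1 inactive. It was called higher in 4 tissues at 10 °C and lower in 3 at 34 °C, and Hspa1b in 5 and 2. In ingSAT it was at 103, 88.6 and 77.3 CPM at 10 °C against 50.1, 46.4 and 42.6 (1.94-fold, log2 0.95 ± 0.14, SE), and in quadriceps at 86.1, 75.7 and 60.8 against 47.3, 37.3 and 35.1 (1.86-fold, log2 0.90 ± 0.17, SE). In both tissues every 10 °C value lay above every 22 °C value. In iBAT the values were 87.6, 152 and 109 CPM against 93.7, 54.7 and 59.8 (1.68-fold), with overlap, and in ileum 97.1, 90.2 and 107 against 87.5, 54.6 and 48.6 (1.55-fold), without overlap. The call in iBAT was lost without 10 °C library 2 or 22 °C library 2, and that in ileum without 10 °C library 3, 22 °C library 2 or 22 °C library 3. With scaling by library size alone both fell under the fold limit (log2 0.56 in iBAT and 0.57 in ileum).

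At 34 °C Hsp90aa1 was lower in iBAT, quadriceps and liver. In iBAT it was at 78.0, 111 and 73.0 CPM against 161, 207 and 158 (log2 -1.0 ± 0.18, SE), without overlap, and the call held when any 1 library was left out. Muscle markers differed between these libraries as given above, and their part in the result was not tested. In quadriceps Hsp90aa1 was at 27.6, 27.6 and 25.1 CPM against 27.9, 49.9 and 48.8 (log2 -0.66 ± 0.20, SE), without overlap, and 22 °C library 1 lay just above the 34 °C group. In liver it was at 50.1, 68.2 and 50.7 CPM against 66.2, 121 and 94.6 (log2 -0.74 ± 0.21, SE), with an overlap of 1 library. The quadriceps call was lost without 22 °C library 2 or 3, and the liver call without library 2.

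**Figure D4:**
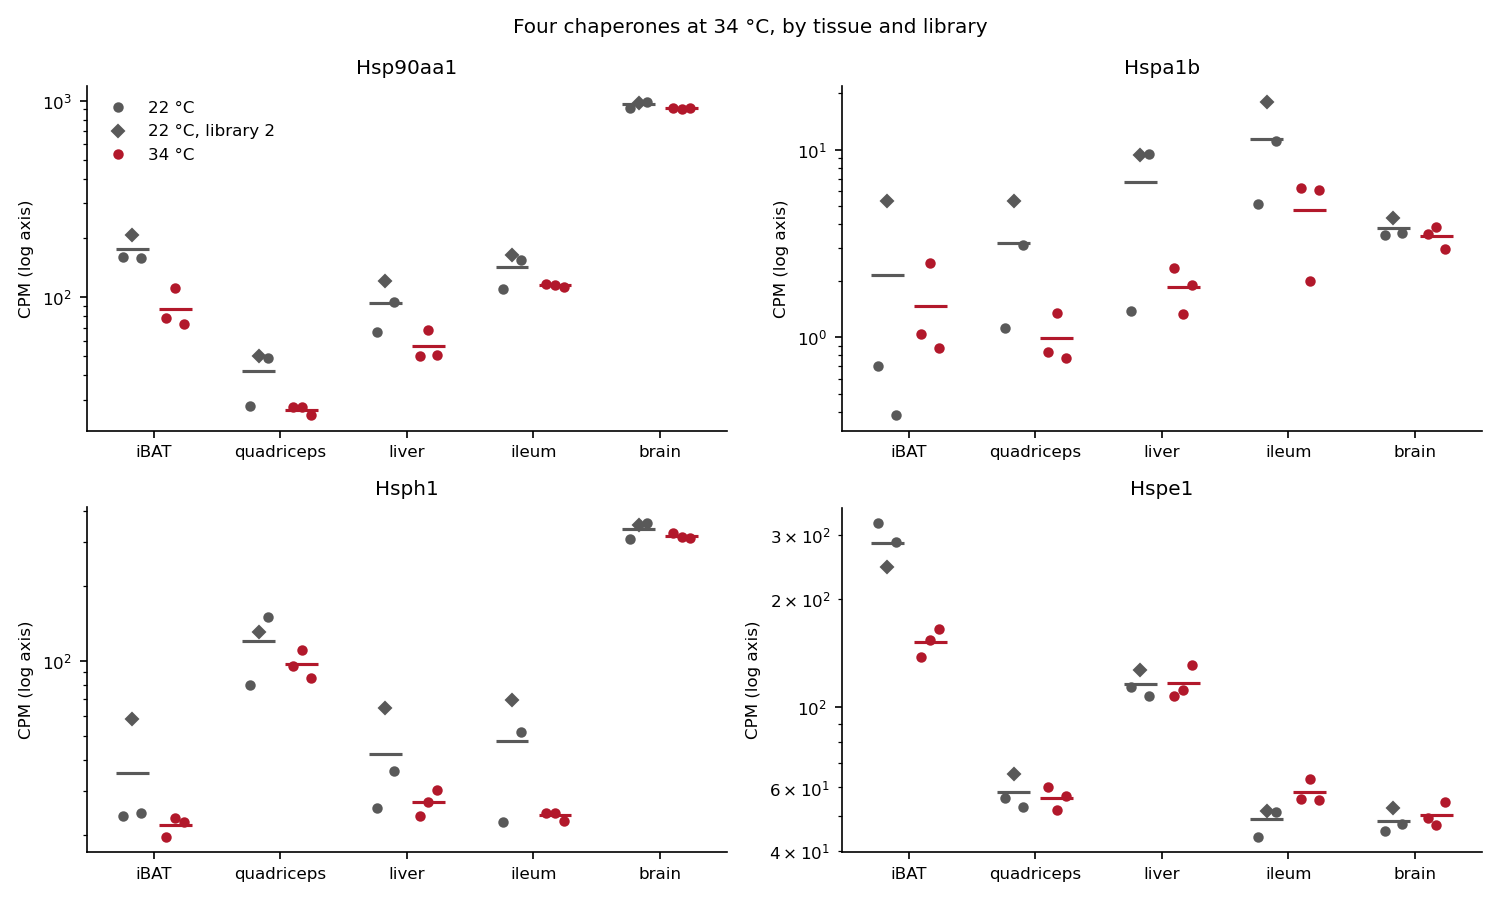
Hsp90aa1, Hspa1b, Hsph1 and Hspe1 in CPM on a log axis in 5 tissues of the warm experiment, 1 point per library (22 °C grey, 34 °C red) with a line at each group mean; diamonds mark 22 °C library 2. Hsp90aa1 and Hspe1 in iBAT show groups apart, and the diamond of Hspa1b lies above both other 22 °C libraries in iBAT, quadriceps, ileum and brain.

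Hspb1 encodes the small heat shock protein HSP27, which holds unfolding proteins in soluble complexes and protects the cytoskeleton. It was called in 1 comparison, iBAT at 10 °C, at 19, 48.6 and 27.5 CPM against 24.9, 16 and 12.5 (1.79-fold, log2 0.84 ± 0.35, SE), with overlap. The call was lost without 10 °C library 2, 22 °C library 2 or 22 °C library 3, or with scaling by library size alone. In bone marrow it was below the filter on low counts, at 0.0491 to 0.518 CPM over both groups. In the other 14 comparisons its log2 fold change lay between -0.36 and 0.48.

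Hspd1 and Hspe1, the HSP60 and HSP10 of the mitochondrial matrix, form the chamber in which imported proteins fold. Hspe1 was higher in ingSAT at 10 °C, at 43.6, 47.3 and 44.0 CPM against 18.2, 18.3 and 26.4 (2.14-fold, log2 1.10 ± 0.17, SE), and lower in iBAT at 34 °C, at 138, 154 and 164 CPM against 323, 245 and 286 (log2 -0.91 ± 0.13, SE). Neither comparison had any overlap, and both calls held when any 1 library was left out. Hspd1 moved the same way but less: in ingSAT it was at 166, 137 and 137 CPM against 98.8, 102 and 96.3 (1.48-fold), and in iBAT at 34 °C at 649, 688 and 742 against 906 and 987 in 22 °C libraries 1 and 3 and a value between these groups in library 2 (log2 -0.39 ± 0.11, SE). Both lay under the fold limit. Brown fat markers summed to 4034 to 5370 CPM in iBAT at 34 °C and to 8938 to 11905 at 22 °C, and muscle markers differed between these libraries as given above; their part in the differences of Hspe1, Hspd1 and Hsp90aa1 was not tested.

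In brain the values of both genes rested on 1 library. With all libraries the log2 fold change at 10 °C was -0.65 for Hspd1 and -0.52 for Hspe1; the 22 °C library with liver transcripts held 185 and 35.3 CPM, and the other 22 °C libraries 62.8 to 72.1 and 14.6 to 15.8. Without it the log2 fold changes were 0.01 and 0.01.

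Hsf1, the transcription factor itself, was called in none of the 16 comparisons. Its log2 fold change at 10 °C ran from -0.44 in quadriceps, at 47.4, 46.6 and 55.3 CPM against 87.2, 57.5 and 58.6, to 0.19 in ileum. Against all 6 quadriceps libraries at 22 °C it was -0.27. At 34 °C it ran from -0.22 to 0.03. Its activity is set by release from chaperones and by phosphorylation of the protein, which messenger RNA levels do not show.

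The tissues measured in both experiments, each with its own 22 °C libraries, were iBAT, quadriceps, liver, ileum and brain. Over these 28 of 49 member and tissue pairs were above 0 at 10 °C and below 0 at 34 °C, where 26.4% of all gene and tissue pairs tested were. The number was 6 in each of iBAT, quadriceps, liver and ileum and 4 in brain. Without the 22 °C brain library with liver transcripts, Hspa1b, Hspb1 and Hspd1 joined the count in brain, which became 7 of 10 beside 22.6% of genes, and the total 31 of 49 beside 26.3%. Hsp90aa1 had a log2 fold change of 0.75 in the cold and -1.0 in the warmth in iBAT, 0.90 and -0.66 in quadriceps, 0.63 and -0.32 in ileum. In iBAT, liver, ileum and brain the 2 experiments differed in library kit, count table, vendor and labelled age, and levels cannot be compared between them. At 22 °C Hspa8 stood at 349 to 403 CPM in brain of the cold experiment and at 1494 to 1589 in that of the warm one. Hsph1 stood at 208 to 286 and 309 to 357. The part of each of these in the difference was not tested.

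The members also differed in where they were highest at 22 °C. In the 8 tissues of 1 count table, levels per kilobase of exon, scaled within each tissue only, were highest in brain for Hspa8 (85.6 CPM per kb), in hypothalamus for Hsph1 (34.2) and, with all brain libraries, Hsp90aa1 (61.1), in spleen for Dnajb1 (37.5) and Hsf1 (5.68), and in iBAT for Hspb1 (17.3), Hspd1 (97.6) and Hspe1 (39.4). The lowest were in liver for Hspa8 (39.2), Dnajb1 (7.71) and Hsf1 (1.95), in pgVAT for Hsph1 (4.35) and Hsp90aa1 (11.2), and in hypothalamus for Hspb1 (1.32) and, with all brain libraries, Hspd1 (26.4) and Hspe1 (11.8). The tissue order was brain, hypothalamus, spleen, iBAT, pgVAT, ingSAT, ileum and liver for Hspa8, where iBAT and pgVAT were the only neighbours whose libraries did not overlap. It was hypothalamus, brain, spleen, liver, iBAT, ileum, ingSAT and pgVAT for Hsph1, in which the 2 brain parts overlapped and stood clear of spleen, and spleen of liver. For Hsp90aa1 it was hypothalamus, brain, spleen, iBAT, ileum, liver, ingSAT and pgVAT, where brain and spleen, spleen and iBAT, and liver and ingSAT did not overlap.

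For Dnajb1 the order was spleen, hypothalamus, brain, iBAT, ileum, pgVAT, ingSAT and liver, with spleen clear of hypothalamus, hypothalamus of brain and ingSAT of liver. Hspb1 ran from iBAT, clear of the rest, through ingSAT, pgVAT, liver, spleen, brain and ileum to hypothalamus, each overlapping the next. Hspd1 ran from iBAT through liver, brain, ileum, ingSAT, spleen and pgVAT to hypothalamus, and Hspe1 from iBAT through spleen, liver, brain, ingSAT, pgVAT and ileum to hypothalamus, and in both only iBAT was clear of its neighbour. These brain levels include the library with liver transcripts, and without it brain moved to the last place for both genes, at 25.5 CPM per kb for Hspd1, overlapping hypothalamus, and at 10.3 for Hspe1, clear of it. Without that library brain also came before hypothalamus for Hsp90aa1 (63.1 CPM per kb), before pgVAT for Hspa1a and Hsf1 and after ingSAT for Hspa1b, and it kept its place for the other 4 genes. Hsf1 ran from spleen and hypothalamus through pgVAT, ingSAT, brain and iBAT to ileum and liver, a 2.91-fold range, with hypothalamus clear of pgVAT, iBAT of ileum and ileum of liver. Hspa1a, from 2.38 in iBAT to 0.378 in liver, and Hspa1b, from 3.58 in liver to 0.904 in hypothalamus, overlapped between every pair of neighbours.

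**Figure D5:**
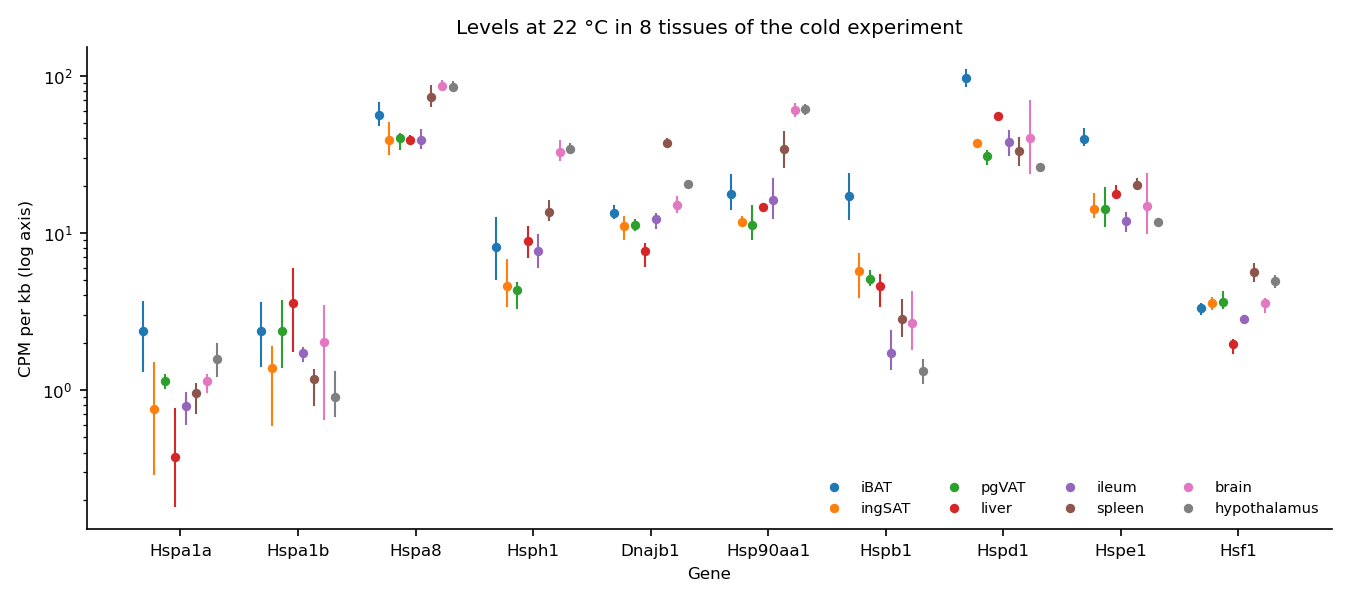
Level of each gene at 22 °C in 8 tissues, in CPM per kilobase of exon on a log axis; points are means of 3 libraries and lines run from the lowest to the highest library. Hspb1, Hspd1 and Hspe1 are highest in iBAT, and Hspa8, Hsph1 and Hsp90aa1 in the 2 brain parts; the upper ends of the brain lines of Hspd1 and Hspe1 are the library with liver transcripts.

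Other chaperone genes were read from 4 lists, chosen with earlier results known, and immediate early genes from a list of 8. Of 19 cytosolic co-chaperones and other heat shock genes, 4 were called higher and 1 lower in iBAT at 10 °C, beside 6% and 7.24% of all genes, with a list median of 0.36 on the log2 scale against -0.02 for all genes. Hspb8, a small heat shock protein that works with the autophagy factor BAG3, was at 174 ± 18.1 CPM against 74.9 ± 13.8 (SD, n = 3; log2 1.21, adjusted p = 0.00202 by edgeR's quasi-likelihood test). Hspa4l, an HSP110, was higher as well (log2 1.08, adjusted p = 0.0458 by edgeR). In ingSAT 4 of 19 were called higher and 2 lower, beside 7.2% and 9.14%. Among them were Cacybp, a protein that binds calcyclin and SIAH1, at 101 ± 4.04 CPM against 44.9 ± 12.8 (SD, n = 3; log2 1.16, adjusted p = 0.0207 by edgeR), Hspa4l (log2 1.12, adjusted p = 0.0109) and Dnaja1, an HSP40 (log2 1.11, adjusted p = 0.0206). In pgVAT, quadriceps and ileum 1 of 19 was called higher in each, beside 4.46%, 3.09% and 1.44% of all genes, with 1 called lower in pgVAT beside 3.47%, and in iBAT at 34 °C 3 of 19 were called lower beside 7.19%.

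Of 7 mitochondrial chaperones and proteases, 4 were called higher in ingSAT, beside 7.2% of all genes, and 1 in iBAT beside 6% at 10 °C, and 1 was called lower in iBAT at 34 °C beside 7.19%. The list median in ingSAT was 0.60 on the log2 scale. Of 14 chaperones of the endoplasmic reticulum, 6 were called higher in pgVAT beside 4.46% of all genes (list median 1.24, none with an adjusted p under 0.05 by edgeR). Epididymis markers in these pgVAT libraries summed to 1.34 to 9441 CPM at 10 °C and to 282 to 2519 at 22 °C, and their part in the result was not tested. Of these 14 chaperones 3 were called higher in liver at 10 °C beside 0.74%, 2 in iBAT beside 6% and 1 in ingSAT beside 7.2%. In ingSAT 3 were called lower beside 9.14%. At 34 °C 2 were called lower in iBAT and 2 in liver, beside 7.19% and 1.61%, and 1 higher in iBAT beside 12.2%. In iBAT at 34 °C Dnajb9, which marks the unfolded protein response, was at 24.4 ± 5.88 CPM against 46.0 ± 9.57 (SD, n = 3; log2 -0.91, adjusted p = 0.0166 by edgeR), and Sdf2l1, a partner of the HSP70 of the reticulum, at 3.04 ± 0.66 against 1.64 ± 0.08 (log2 0.89, adjusted p = 0.0401). No subunit of the TRiC chaperonin, a folding chamber for actin and tubulin, was called in any comparison.

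In bone marrow Dnajb4, Dnaja3 and Tcp1 had adjusted p-values of 0.00735, 0.0176 and 0.0249 by edgeR with log2 fold changes of 0.25, 0.16 and 0.14, all under the fold limit. Neutrophil markers there summed to 27668 to 29503 CPM at 10 °C and 29895 to 44603 at 22 °C. B cell markers summed to 648 to 756 CPM at 10 °C and 468 to 643 at 22 °C. Neither sum overlapped between the groups, and their part in the bone marrow values of the chaperones was not tested. Of the 8 immediate early genes 5 were called lower in iBAT at 10 °C, beside 7.24% of all genes, among them Dusp1, a phosphatase that switches off MAP kinases, at 38.2 ± 3.38 CPM against 87.5 ± 19.4 (SD, n = 3; log2 -1.20, adjusted p = 0.0035 by edgeR). In pgVAT 5 were called lower beside 3.47%, and in ingSAT 2 beside 9.14%. In brain at 10 °C 4 were called higher, beside 0.27% of all genes, and 5, beside 0.515%, without the 22 °C library with liver transcripts. The 8 genes summed to 276 to 331 CPM in brain at 10 °C and to 173 to 215 at 22 °C, without overlap, and their part in the brain values of the chaperones was not tested. In liver at 34 °C 3 were called higher and 1 lower, of 7 tested, beside 1.77% and 1.61%. At 10 °C 1 was called higher in each of quadriceps, liver, ileum and spinal cord, beside 3.09%, 0.74%, 1.44% and 0.181% of all genes. At 34 °C 1 was called higher in iBAT beside 12.2%, and 1 lower in ileum beside 1.26% and in brain beside 0.15%. At 34 °C Jun in iBAT (log2 1.75, adjusted p = 0.0312) and Dusp1 in liver (log2 0.94, adjusted p = 0.0339) were higher by the same test.

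Across the 16 comparisons the gene most like Hspa1b in its log2 fold changes, among 8754 genes tested in all of them, was Ccdc134 (r = 0.79), followed by Dynll1 (0.78), Helq (0.72), Ehmt1 (0.72) and Pik3r3 (0.69). Among the members r with Hspa1b was 0.91 for Hspa1a over 15 comparisons, 0.76 for Dnajb1, 0.63 for Hsp90aa1, 0.50 for Hsph1, 0.35 for Hspa8, 0.17 for Hspd1, 0.12 for Hsf1, 0.10 for Hspe1 and -0.10 for Hspb1. The points are comparisons of 2 experiments and 4 tables, and Hspa1a shares sequence with Hspa1b. Dynll1, a dynein light chain, had its farthest values at 0.56 in ileum at 10 °C and -0.92 in liver at 34 °C, a smaller range than that of Hspa1b, which ran from -1.86 to 1.93.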

How the data were processed

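RNA-seq was done on whole tissues, with NEBNext Ultra libraries for 8 cold tissues and stranded TruSeq libraries, read as single 50-base reads, for cold bone marrow and spinal cord and all warm tissues; for cold quadriceps the sources do not give the kit clearly. The authors aligned reads to mm10 with STAR and counted them per gene with HTSeq (the labels name STAR 2.5.3a and HTSeq 0.6p1), and deposited 4 tables of raw counts, in which pooled mice are 1 library. Columns of the authors' own means and comparisons were not used as results. Counts were fitted here one tissue at a time with edgeR 4.0.16 in R 4.3.3 (TMM factors, average log2 CPM above 0, quasi-likelihood F-test, Benjamini-Hochberg adjusted p over all genes tested). CPM are TMM-scaled within a comparison. The SE of a fitted log2 fold change is its absolute value divided by the square root of the F statistic. Calls need a fold change over 1.5 with p no larger than 0.05 before adjustment. The members and lists were chosen with earlier results of these data known. Members therefore carry no test, and counts of members with an adjusted p under 0.05 are a description. Adjusted p-values of list genes, taken over all genes tested, describe these data and are not an independent test. Named beside the members are, in each comparison, up to 3 list genes with the largest absolute log2 fold change among genes whose adjusted p fell below 0.05, and the 5 genes whose log2 fold changes correlate best with those of Hspa1b. Quadriceps 22 °C columns were split by header prefix, as the means the authors deposited also split them. Replicates other than in bone marrow and spinal cord are pools, apart from single mice in part of the warm interscapular brown fat. The p-values measure the spread between these libraries. Scripts were tested on simulated data. Alternatives were DESeq2 1.42.0, edgeR's exact test, library size scaling, edgeR's filterByExpr or no filter, adjusted p, all 6 quadriceps controls, the summed HSP70 pair, a replicate block and, outside bone marrow, leaving out each library. Leaving out bone marrow mice 3 and 4, together or singly, and the 22 °C library 2 of the warm tissues was chosen after seeing the data. Precision rests on the spread between the few libraries of a group and, for low counts, also on depth. Depth was 4262403 to 62880248 counted reads a library.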

Additional observations from a re-analysis of the deposited data

Results flagged for a closer look

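Hspe1 was higher in every 34 °C library than in every 22 °C library in ileum (log2 0.249), at 55.7, 63.4 and 55.6 CPM against 43.8, 51.8 and 51.3, and lower in every one in iBAT (log2 -0.905). The tissues moved in opposite directions, and the difference between them was not tested.

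Hsf1 was higher in every 10 °C library in ileum (log2 0.188), at 22.3, 23.7 and 22.3 CPM against 20.2, 20.5 and 19.3. In quadriceps it was lower in every one than in the 22 °C libraries assigned to the cold experiment (log2 -0.443). Against all 6 quadriceps libraries at 22 °C the log2 fold change was -0.271. The difference between ileum and quadriceps was not tested either.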

How the results depend on the processing

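Of 391 values of the 33 called member comparisons under the alternatives other than adjusted p and the summed pair, 343 were still called, 48 were not and 0 changed sign. Fits in which the gene fell below the filter on low counts are not among these values. The warm fits without 22 °C library 2 are counted more than once among them. With an adjusted p under 0.05 by edgeR the members called higher at 10 °C went from 25 to 6 and those called lower at 34 °C from 8 to 2, and the other chaperone genes from 28 to 14 higher and 7 to 3 lower at 10 °C and from 8 to 5 lower at 34 °C. Without 22 °C library 2 in the warm tissues, 1 member was called higher and 2 lower at 34 °C, and 2 and 5 of the other chaperones. With library size scaling only, which moved the median of all genes to between -0.18 and 0.30 on the log2 scale, 1 member (Hspb1 in iBAT) and 3 other chaperones were called higher at 34 °C, and the exact test called 2 of the latter. Each library was left out in turn, except in bone marrow, where only 10 °C mice 3 and 4 were left out singly. This gave 22 to 26 members called higher and 0 to 1 lower at 10 °C, and 0 to 1 higher and 6 to 10 lower at 34 °C. For the other chaperones it gave 21 to 34 and 4 to 12 at 10 °C, and 1 to 2 and 5 to 11 at 34 °C. The cause of these changes was not tested. The single call lower at 10 °C was Hspa1a in spleen without 10 °C library 1. Replicate numbers were examined in 8 cold tissues, and none had every same-number correlation above 0.1. The correlations ran from -0.683 to 0.456, and with 3 libraries a group they do not settle whether the numbers pair the samples. With a replicate block in these tissues 25 members were called higher and 0 lower at 10 °C, and 24 and 7 of the other chaperones. Counts as low as 6 for Hspa1a in bone marrow limit the precision there.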
